A study of Homo sapiens with 2 samples.

Results

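Genes of the long arm of chromosome 21, 60 of them listed roughly in map order from C21orf91 to PRMT2, were followed in HEC1A. HEC1A is an established cell line grown from a human adenocarcinoma of the endometrium. A probe set, the group of short probes that measures a transcript on an Affymetrix array, was taken for a gene where the platform's annotation gave it that gene's symbol and no other. Such probe sets were found for 57 of the 60 genes, among the 242 chromosome 21 genes and 19775 genes measured in all. N6AMT1 was matched through its RefSeq synonym, under the symbol HEMK2. RUNX1 and TTC3 had only probe sets shared with other symbols and PDXK had none under its symbol, so these 3 are not analysed here. The list was drawn up with the differences between these arrays known, so its size of difference is a description and carries no test.

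The study compared 2 engineered states of the same line, with 1 array each. The first state overexpressed EMP2, epithelial membrane protein 2, which is a small tetraspan protein. The second carried a short hairpin RNA vector against EMP2 and is called knockdown here. Both lines grew in McCoy's medium with fetal bovine serum, no further treatment was given, and cells without either construct are not analysed here. The labels do not say whether a line was 1 clone or a pool, nor which promoter drove EMP2 or the hairpin. With no replicate there is no SD, no p-value and no check of any difference against the spread between samples. A difference between the arrays cannot be assigned to the overexpression, to the knockdown, or to any other way in which the lines had come to differ.

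Chromosome 21 is the smallest human autosome by length, and an extra copy of it causes Down syndrome. Its long arm holds genes of unrelated function, among them APP, the precursor of the amyloid beta peptide, SOD1, the cytosolic copper and zinc superoxide dismutase, DYRK1A, a dual-specificity kinase, and RCAN1, an inhibitor of calcineurin. The members therefore share a location rather than a pathway, and many of them are subunits of complexes whose other subunits are encoded on other chromosomes. RNA of a gene commonly follows its copy number, although feedback can offset part of that. Copy number was not measured here.

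Several members start close to an oppositely oriented gene, so that 1 stretch of sequence precedes both. Start windows were taken from RefSeq on GRCh38.p14, each running from 250 bases before to 50 bases after an annotated start, and 51 of the 60 listed genes had 1 or more, 84 windows in all. The 4 windows below are shown because each overlaps the window of a neighbour on the other strand, and 3 of these neighbours were also measured. They are printed 5′ to 3′ on the strand of the named gene, with capitals for the GC box (GGGCGG), the CCAAT box (CCAAT) and the core of ETS factor sites (CCGGAAG) on either strand.
SON, plus strand, chr21:33542788-33543087: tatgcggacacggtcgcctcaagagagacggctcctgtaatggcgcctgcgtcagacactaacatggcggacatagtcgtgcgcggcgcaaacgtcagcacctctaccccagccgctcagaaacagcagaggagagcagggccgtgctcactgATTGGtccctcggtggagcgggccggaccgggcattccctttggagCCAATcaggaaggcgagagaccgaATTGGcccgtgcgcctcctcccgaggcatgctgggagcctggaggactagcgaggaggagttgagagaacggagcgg
ATP5PF, minus strand, chr21:25734855-25735154: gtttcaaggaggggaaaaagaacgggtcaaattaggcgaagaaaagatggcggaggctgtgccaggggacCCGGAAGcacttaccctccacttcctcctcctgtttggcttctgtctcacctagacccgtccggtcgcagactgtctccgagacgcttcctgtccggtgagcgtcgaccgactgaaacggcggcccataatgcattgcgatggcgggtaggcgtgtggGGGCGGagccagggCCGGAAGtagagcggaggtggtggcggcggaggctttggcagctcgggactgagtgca
PIGP, minus strand, chr21:37073022-37073321: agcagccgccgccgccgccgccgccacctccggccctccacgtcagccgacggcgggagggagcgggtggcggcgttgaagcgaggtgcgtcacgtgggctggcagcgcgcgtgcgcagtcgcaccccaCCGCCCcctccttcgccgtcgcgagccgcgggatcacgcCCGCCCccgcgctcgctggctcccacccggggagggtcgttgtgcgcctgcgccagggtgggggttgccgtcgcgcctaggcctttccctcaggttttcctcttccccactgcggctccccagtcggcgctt
PCNT, plus strand, chr21:46323906-46324205: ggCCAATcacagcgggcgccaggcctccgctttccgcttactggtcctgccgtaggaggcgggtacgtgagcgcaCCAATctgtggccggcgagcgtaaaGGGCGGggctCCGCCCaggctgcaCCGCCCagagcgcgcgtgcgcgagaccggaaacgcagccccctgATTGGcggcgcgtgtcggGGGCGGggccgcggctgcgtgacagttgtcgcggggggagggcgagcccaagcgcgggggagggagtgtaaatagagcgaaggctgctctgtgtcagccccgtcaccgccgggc
The SON window overlapped that of GART and held 3 CCAAT boxes and 0 GC boxes. The ATP5PF window overlapped that of GABPA, which encodes an ETS factor, and held 2 ETS cores and 1 GC box. The PIGP window overlapped that of TTC3 and held 2 GC boxes, and the PCNT window overlapped that of C21orf58 and held 4 GC boxes and 3 CCAAT boxes.

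Over the 84 member windows the median GC content was 71.0%, against 64.7% over the 14161 windows of genes on other chromosomes that passed the brightness filter described below. A GC box was found in 66.7% of the member windows, 65.7% of those 14161 windows and 45.0% of all 35116 windows in the table. The ETS core stood in 21.4%, 16.7% and 10.3% of the same 3 sets, and the CCAAT box in 27.4%, 34.9% and 34.6%. A TATA box (TATAAA on either strand) was found in 15.5%, 6.09% and 11.5%. The core bound by RUNX factors (TGTGGT), the family of the listed gene RUNX1, stood in 3.57%, 9.93% and 13.1%. The palindromic E-box (CACGTG) was found in 11.9%, 9.45% and 7.26%. The AP-1 core (TGACTCA) stood in 2.38%, 3.53% and 4.95%, and the first 5 bases of the cyclic AMP response element (TGACG) in 39.3%, 31.5% and 24.6%. Over the 72 windows of other chromosome 21 genes past the filter the median GC content was 67.2%. In these 72 the GC box, ETS core, CCAAT box and TATA box stood in 63.9%, 18.1%, 20.8% and 5.56%. The RUNX core, E-box, AP-1 core and TGACG stood in 12.5%, 5.56%, 4.17% and 23.6%. Some member shares rest on few windows, 3 for the RUNX core and 2 for the AP-1 core, and none was tested. Windows of 1 gene can overlap, and a match is a run of letters, not a bound site.

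Values are as deposited, on a log2 scale, so that a difference of 1 is 2-fold. Each gene was read on its brightest probe set, judged by the mean over the arrays, and each difference is overexpression minus knockdown. A gene passed the brightness filter where its brighter array read 6.40 or more, which is the median over all single-symbol probe sets, and 12061 genes and 54 of the 57 measured members did so. The 3 members below it were HUNK, EVA1C and CBR1. As a background level, 27 probe sets for bacterial control transcripts reached at most 5.85. EMP2 read 12.25 in overexpression and 9.51 in knockdown on its brightest probe set and differed by 0.39, 0.23 and 0.00 on its other 3. Of 10 endometrial epithelial markers 9 passed the filter, including EPCAM (13.13 and 13.12) and PAX8 (11.26 and 11.33). Of the markers of other cell types 2 of 5 endothelial, 0 of 4 leukocyte and 1 of 5 fibroblast genes passed it. These were PECAM1 (6.82 and 6.62), TEK (6.37 and 6.44) and COL1A1 (8.51 and 8.48), which read above the epithelial marker MUC1 (8.13 and 7.83). PTPRC, CDH5 and KDR were not above the bacterial controls on either array, and nor was the epithelial marker PGR (4.01 and 3.93). ESR1 passed the filter narrowly, at 6.49 on both arrays. The epithelial markers did not all read alike, with CDH1 differing by 1.08, KRT19 by -0.97 and KRT8 by -0.77.

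Of the 57 measured members, 49 read higher in the overexpressing cells, 2 had the same value on both arrays and 6 read lower. The median difference was 0.36, or 1.28-fold, and the middle 50% of members lay between 0.13 and 0.54. This size rests on the probe set chosen. With the second brightest of each gene, dim ones included, the median was 0.052, with 23 of 44 members above 0. Only 29 members had a further probe set past the filter. The 51 such probe sets had a median of 0.24, with 39 above 0. Without probe sets whose names mark a possible match to several transcripts, dim ones again included, the members' median was 0.21, with 32 of 45 above 0. Among all genes past the filter 45.6% were above 0, with a median of 0.00. At least 1.25-fold higher, a threshold set after the values were seen, were 30 members, where the share of all genes was 11.8%. At least 1.5-fold higher were 12 members, with 4.97% of all genes, and at least 1.5-fold lower were 2, with 4.15% of all genes. No member was 2-fold higher, which 1.65% of all genes were. The members were chosen on this comparison, so these counts describe the list and support nothing further. In RNA of whole cultures, more cells with a transcript and more of it per cell cannot be told apart.

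**Figure D1:**
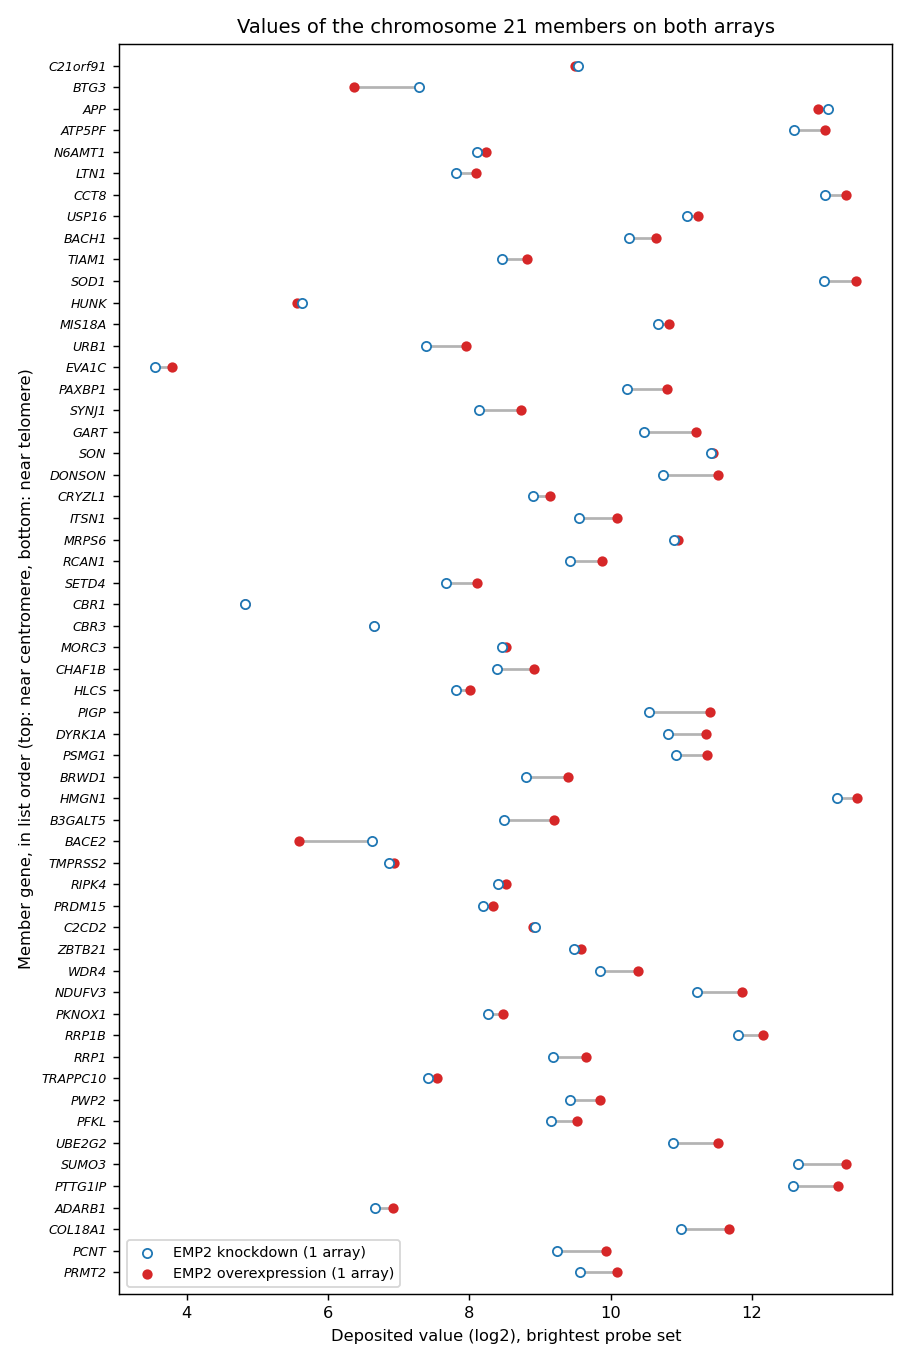
Deposited log2 values of the 57 measured members on both arrays, in the order of the list, from near the centromere at the top to near the telomere at the bottom, with overexpression as filled red points and knockdown as open blue points, 1 array each. For 49 members the red point lies to the right of the blue one, and the widest gaps to the left are those of BACE2 and BTG3.

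Brighter chromosome 21 genes off the list also read higher. Another 74 chromosome 21 genes passed the filter without being on the list, and their median difference was 0.31, with 59 above 0 and 13 below. The other 111 genes off the list were below the filter and had a median of 0.00, and over all 185 the median was 0.049. Past 1.5-fold were 17 of these 74 in the upward direction and 2 in the downward one. All 128 chromosome 21 genes past the filter had a median of 0.35, and 83.6% of them were above 0. The medians of the other 21 autosomes and the X chromosome lay between -0.08 (chromosome 13) and 0.05 (chromosome 15). On chromosomes 2 and 11, which had the next highest shares of genes at least 1.5-fold higher, these shares were 8.47% and 7.97%, with 22.7% on chromosome 21. Their medians were 0.01 and 0.03 and their upper quartiles 0.26 and 0.23. A median over a whole chromosome does not show whether a stretch of it was higher, and stretches of other chromosomes are not described here. With no replicates, no difference between chromosomes was tested.

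**Figure D2:**
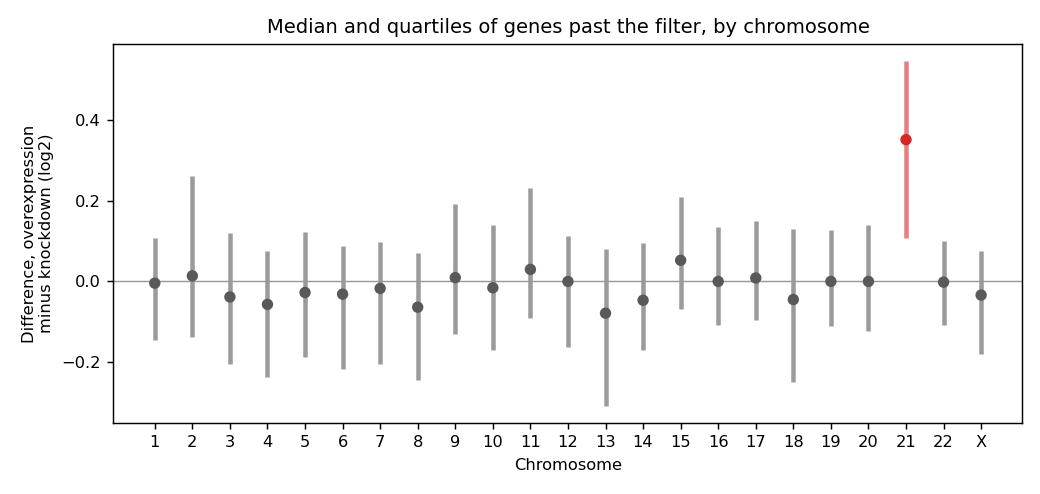
Median (point) and quartiles (bar) of the log2 difference, overexpression minus knockdown, over the genes past the filter on each autosome and on the X chromosome. Chromosome 21, in red, has its median at 0.35 and its lower quartile at 0.11, above the medians of all other chromosomes shown.

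The listed genes were read in blocks of 10, and the block medians varied along the chromosome. The quartile ranges of neighbouring blocks overlapped. Those of the first block (-0.01 to 0.34) and the last (0.38 to 0.67) did not. The difference also went with brightness, as described below, and the part of brightness in these medians was not tested. Among the first 10 listed genes, from C21orf91 to TIAM1, the median was 0.22 and none was 1.5-fold higher. C21orf91 read 9.49 in overexpression and 9.54 in knockdown, and APP 12.94 and 13.07, so both were slightly lower in the overexpressing cells. BTG3, which encodes an antiproliferative protein of the BTG/TOB family, read 6.37 and 7.29, a difference of -0.91. It passed the filter only through the knockdown array, and its other probe sets were not above the bacterial controls on either array. The genes nearer the centromere showed no common direction. HSPA13, a chaperone of the HSP70 family, read 10.83 and 10.69, and NRIP1, a corepressor of nuclear receptors, 10.84 and 11.10. The deubiquitinase USP25 read 10.08 and 9.63. CXADR, the coxsackievirus and adenovirus receptor, stood next to BTG3 and was 2.24-fold lower (9.27 and 10.43). The running median over 9 neighbouring genes past the filter was lowest, at -0.13, around MRPL39, which lies between C21orf91 and ATP5PF. That window included BTG3 and CHODL, which both passed the filter only through the knockdown array, so their signs were partly fixed by it.

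From SOD1 to DONSON, the second 10 listed genes, the median was 0.51 and 9 of 10 were above 0, counting EVA1C, which was below the bacterial control maximum on both arrays. The gene with the opposite sign was HUNK, a kinase that was dim on both arrays (5.57 and 5.64). The receptor genes IFNAR1, IFNAR2, IFNGR2 and IL10RB lie inside this stretch and are not on the list. IFNGR2, a chain of the interferon gamma receptor, differed by 0.78 (11.58 and 10.80) and IFNAR1, a chain of the type I interferon receptor, by 0.72 (9.14 and 8.42). IFNAR2 differed by 0.57 and IL10RB by 0.38. The next 9 measured genes on the list, from CRYZL1 to CHAF1B, had a lower median of 0.23. This group held CBR1 and CBR3, neighbouring genes for carbonyl reductases, which each had the same value on both arrays, 4.83 for CBR1 and 6.66 for CBR3. The value of CBR1 was below the bacterial control maximum, and it counts as 0 in this median. Identical values on both arrays were found for 14.6% of all probe sets.

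From HLCS to TMPRSS2 the median was 0.44. This group held both the member with the largest positive difference, PIGP, and the one with the largest negative difference, BACE2. From RIPK4 to RRP1 it was 0.21. The first 4 of those genes, RIPK4, PRDM15, C2CD2 and ZBTB21, differed by 0.11, 0.15, -0.02 and 0.09, with levels between 8.19 and 9.57. From TRAPPC10 to PRMT2, the group at the telomere, the median was 0.57, and 10 of 10 genes were above 0. Of these 10, 5 were at least 1.5-fold higher. Over all 57 measured members these shares were 86% and 21.1%. Across the 57 measured members the difference and the map order had a Spearman rho of 0.30. For the difference and the mean level it was 0.43. The points share both arrays and neighbours share a location, so these values are descriptions. Position was not separated from brightness.

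**Figure D3:**
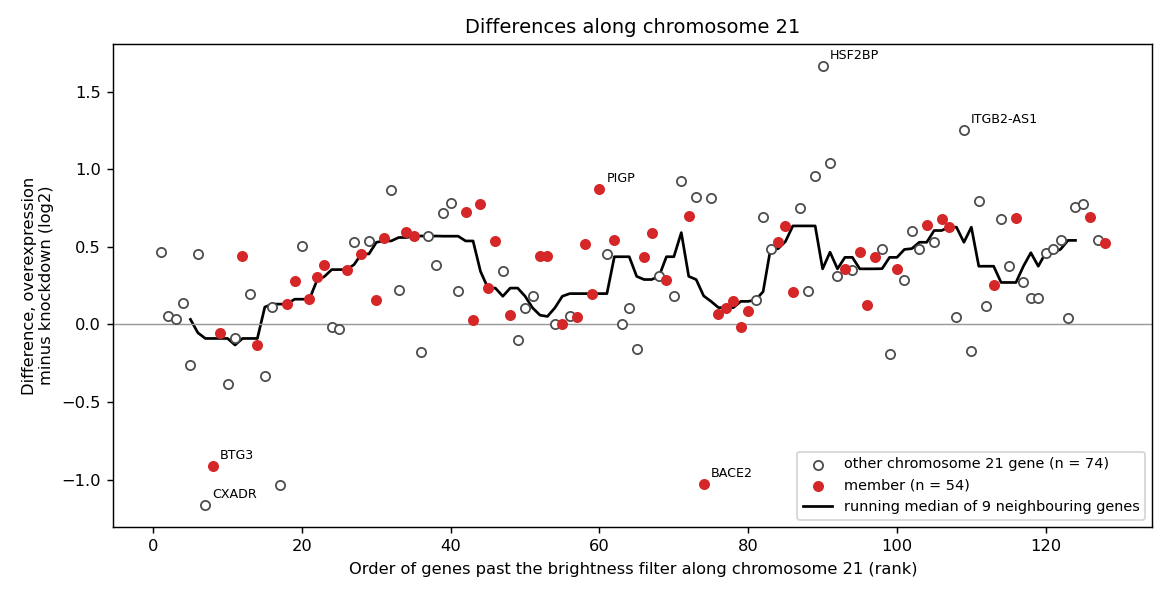
Log2 difference, overexpression minus knockdown, of the 128 chromosome 21 genes past the filter in their order along the chromosome, with the 54 members filled and the 74 other genes open. The running median of 9 neighbouring genes is below 0 from USP25 to APP and near 0.57 around the interferon receptor genes. Beyond these it falls to 0.05 at SETD4 and to 0.11 around TMPRSS2 and RIPK4.

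Above 0 were 86% of the 57 measured members, and 21.1% were at least 1.5-fold higher. The counts by function given here and below stand against these shares and were not tested. Among members that make energy or handle oxygen radicals, all 5 were above 0. NDUFV3, a subunit of mitochondrial complex I, read 11.86 in overexpression and 11.22 in knockdown and was 1.55-fold higher. SOD1 read 13.48 and 13.02, and ATP5PF, coupling factor 6 of the ATP synthase, 13.03 and 12.59, differences of 0.45 and 0.44. PFKL, the liver form of phosphofructokinase, read 9.52 and 9.16. MRPS6, a protein of the small mitochondrial ribosomal subunit, was nearly level at 10.96 and 10.90. SLC5A3, a myo-inositol transporter gene that shares the annotated start of MRPS6, was also nearly level, at 8.82 and 8.92.

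All 6 measured members that fold proteins or attach ubiquitin or SUMO were above 0, with a median of 0.37. SUMO3, a small ubiquitin-like modifier, read 13.33 and 12.65 and was 1.60-fold higher. UBE2G2, a ubiquitin-conjugating enzyme of endoplasmic reticulum-associated degradation, read 11.52 and 10.88, a difference of 0.64. PSMG1, a chaperone of proteasome assembly, differed by 0.44 (11.36 and 10.93), CCT8, a subunit of the cytosolic chaperonin, by 0.31 (13.34 and 13.03) and LTN1, the ubiquitin ligase of ribosome quality control, by 0.28 (8.10 and 7.82). USP16, a deubiquitinase of histone H2A, read 11.24 and 11.08.

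All 12 measured members of the chromatin and transcription group were above 0, where 86% of all measured members were, and 1 of them reached 1.5-fold. That was BRWD1, a bromodomain protein, with 9.39 and 8.80. PAXBP1 differed by 0.57, PRMT2, an arginine methyltransferase, by 0.52, and CHAF1B, a subunit of chromatin assembly factor 1, by 0.52 (8.92 and 8.40). BACH1, a repressor of antioxidant genes that is released by haem, read 10.65 and 10.26. HMGN1, a nucleosome-binding protein, was among the brightest members at 13.49 and 13.20. SETD4, a lysine methyltransferase, differed by 0.44 and PKNOX1, a homeodomain factor, by 0.21. MIS18A, which helps to load the centromeric histone, differed by 0.16 and PRDM15, a zinc finger protein, by 0.15. MORC3 (8.51 and 8.46) and ZBTB21 (9.57 and 9.49) were nearly level.

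Of 8 members that serve ribosome assembly, splicing, RNA editing or methylation, all were above 0 and none reached 1.5-fold. URB1, a ribosome biogenesis factor, read 7.95 and 7.39, WDR4, the partner of the tRNA methyltransferase METTL1, 10.38 and 9.85, and PWP2, a component of the small subunit processome, 9.85 and 9.42. The paralogs RRP1 and RRP1B, nucleolar proteins, differed by 0.47 and 0.36. N6AMT1, a methyltransferase of translation release factors, differed by 0.13. ADARB1, an adenosine deaminase that edits RNA, read 6.92 and 6.66. SON, a splicing cofactor, had the smallest positive difference, with 11.44 and 11.41.

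The 3 members of replication, the centrosome and growth arrest were split. BTG3, given above, was lower in the overexpressing cells. DONSON, a replication fork protein, read 11.52 and 10.74 and was 1.71-fold higher, and PCNT, the centrosome scaffold pericentrin, read 9.93 and 9.24 and was 1.61-fold higher. Among kinases and signalling genes, DYRK1A read 11.35 and 10.81, RCAN1 9.87 and 9.43, and TIAM1, an exchange factor for Rac, 8.82 and 8.46. RIPK4, a kinase of epidermal differentiation, differed by 0.11. None of the 5 signalling genes reached 1.5-fold. All 4 genes of membrane traffic were above 0. PTTG1IP, a membrane protein that binds securin, read 13.21 and 12.59 and SYNJ1, a phosphoinositide phosphatase of endocytosis, 8.73 and 8.14. ITSN1, an endocytic scaffold, differed by 0.54 (10.09 and 9.55), while TRAPPC10, a subunit of the TRAPP vesicle tethering complexes, differed by 0.13.

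The 7 metabolic enzymes ran from 0.00 to 0.87, with 5 above 0. PIGP, a subunit of the enzyme that starts glycosylphosphatidylinositol anchors, had the largest positive difference of all members. It read 11.41 in overexpression and 10.54 in knockdown, or 1.83-fold. GART, which carries 3 activities of purine synthesis in 1 protein, read 11.20 and 10.48 and was 1.65-fold higher. B3GALT5, a galactosyltransferase, differed by 0.70 (9.19 and 8.49). HLCS, which attaches biotin to carboxylases, differed by 0.20. CRYZL1 differed by 0.23. Of the carbonyl reductases given above, CBR3 was level, while CBR1 was below the highest bacterial control on both arrays, so its difference cannot be read.

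Membrane proteins, surface proteases and matrix genes had a median of 0.02, with 3 of 6 above 0. One of these 3 was EVA1C, which was below the highest bacterial control on both arrays, so its sign cannot be read. COL18A1, the collagen whose fragment is endostatin, read 11.68 and 10.99 and was 1.61-fold higher. BACE2, a protease that cleaves APP, read 5.59 and 6.62. Since 5.59 lies below the highest bacterial control, BACE2 was at least 1.71-fold lower, computed against that control's 5.85. C2CD2 was level at 8.91 and 8.93. TMPRSS2, a serine protease of the cell surface, was dim and nearly level at 6.93 and 6.86.

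To set the members beside genes of the same function elsewhere, 25 lists of complexes and pathways were used, with 145 partner genes on other chromosomes, of which 128 passed the filter. The partners had a median difference of 0.00, with 63 above 0, 64 below and 1 at least 1.5-fold higher. The 28 members in 24 of these lists had a median of 0.43. Of the 28, 23 lay above the median of their partners and 17 above every partner. Members were chosen as higher in this same comparison, so these ranks were partly fixed in advance and carry no test. For SUMO3 and UBE2G2 every partner was 1 gene, and for PFKL, WDR4 and N6AMT1 it was 2. NDUFV3, at 0.63, stood beside 7 other complex I subunits between -0.18 and 0.02. PSMG1, at 0.44, stood beside 4 other proteasome assembly factors between -0.14 and 0.03. GART, at 0.73, stood beside 5 other enzymes of purine synthesis between -0.28 and 0.26, and DYRK1A, at 0.54, beside 3 related kinases between -0.27 and -0.21. The median of 5 partners of PIGP was -0.23 and their highest value, that of DPM2, was 0.41.

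In some other lists a partner had a higher difference than the member. MRPS6, at 0.06, lay within the range of 26 other small mitochondrial ribosomal subunit genes, -0.27 to 0.11. CCT4, a chaperonin subunit encoded on chromosome 2, differed by 0.41 (13.56 and 13.15), more than CCT8. ATP5MG, an ATP synthase subunit encoded on chromosome 11, differed by 0.46 (13.64 and 13.18), more than ATP5PF, while the median of 12 synthase partners was -0.01. The homologues of ITSN1 and SYNJ1 were also higher, ITSN2 by 0.46 and SYNJ2 by 0.60. In the lists of SOD1 and RCAN1, which both lay above every partner, a relative went the other way. SOD2, the mitochondrial superoxide dismutase, read 9.02 and 9.73, and RCAN3, another regulator of calcineurin, read 8.74 and 10.15, a difference of -1.41. Of 7 genes in APP processing, APLP2, a paralog of APP, differed by 0.54 (12.67 and 12.13).

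**Figure D4:**
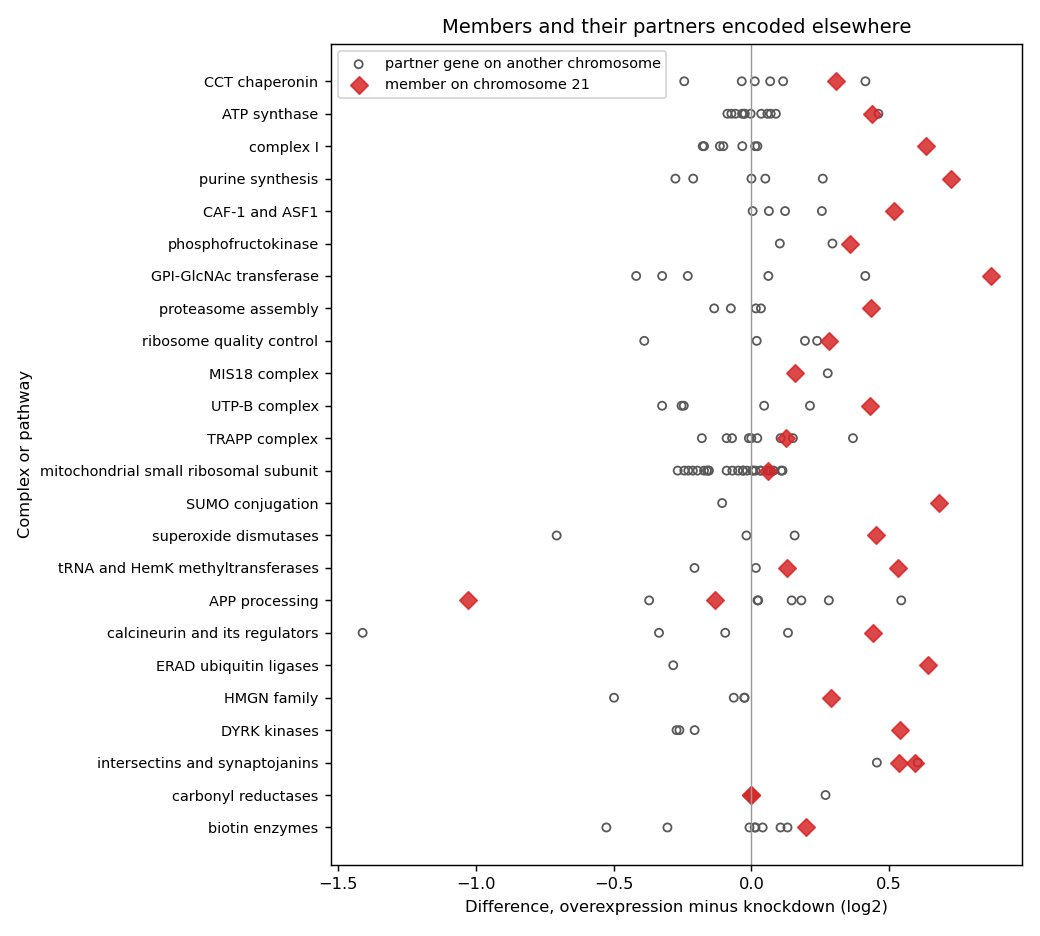
Log2 difference, overexpression minus knockdown, of members (red diamonds) and of their partner genes past the filter on other chromosomes (open circles), for the 24 complexes and pathways with a measured member. Members lie to the right of every partner in 17 of 28 cases, and BACE2, at -1.03, is the leftmost member. Members were chosen as higher in this comparison, so their place relative to partners was partly fixed in advance.

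Probe sets other than the brightest gave a check on each gene within the same arrays. A further probe set passed the filter for 29 members, 51 in all, with a median difference of 0.24, where 20897 single-symbol probe sets past the filter outside chromosome 21 had a median of 0.00. Of the 51, 39 were above 0, 3 at 0 and 9 below. Of 26 members above 0 with such a probe set, 18 had every other one above 0 too. ITSN1 was even across its 3 probe sets, with 0.54, 0.50 and 0.51, and so was UBE2G2, with 0.64, 0.54 and 0.50. SUMO3 differed by 0.98 on its dimmer probe set, B3GALT5 by 0.82, and a second probe set of BACE2 read 5.55 and 6.53, again below the highest bacterial control in overexpression and past the filter only through the knockdown array. Of the 5 probe sets of SON, the 3 brightest differed by 0.03, 0.00 and 0.18 and the other 2 by 0.49 each, so the small value given above rested on the probe set chosen.

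For 6 members a probe set lay at least 0.5 from the brightest. GART had probe sets at 1.34 (10.36 and 9.03) and at 2.34, the latter with a knockdown value of 5.23 that was not above the bacterial controls, and another at 0.19. USP16 had one at 0.86. COL18A1 was split, at 0.68 on the brightest and -0.22 on the other (10.51 and 10.73). URB1 had one at 5.83 and 6.41, with the overexpression value not above the bacterial controls and the filter passed only through knockdown. BRWD1 had one at -0.54 (7.21 and 7.75), against a positive value on the brightest, with the other BRWD1 probe sets at 0.07 and 0.04. WDR4 had one with the same value on both arrays and another at 0.68. For 7 of the 12 members past 1.5-fold a dimmer probe set could be read, and for 3 of the 7, GART, SUMO3 and B3GALT5, it also reached 1.5-fold. PIGP and DONSON, the 2 members with the largest positive differences, were measured by 1 probe set each. The size of the shift depended on this choice. With all probe sets of a gene averaged, dim ones included, the median of the 57 members was 0.23 and 6 were at least 1.5-fold higher.

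**Figure D5:**
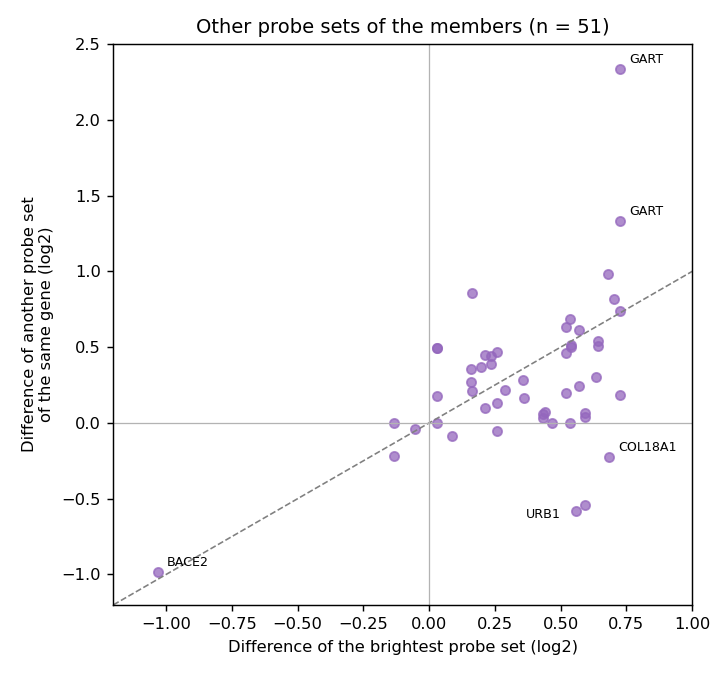
Log2 difference of each of the 51 other probe sets past the filter (vertical axis) against that of the brightest probe set of the same member (horizontal axis), with the dashed line marking equal values. Of the 51 points 39 lie above 0, the highest are those of GART, and COL18A1 and URB1 lie below 0 although their brightest probe sets are above it. The points of BACE2 and URB1 below 0 have overexpression values not above the bacterial controls.

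The size of the difference went with brightness. The 19 dimmest members, with mean levels of 3.67 to 8.49, had a median of 0.13, the next 19 one of 0.44 and the 19 brightest, from 10.84 to 13.35, one of 0.45. Genes outside chromosome 21 in the same 3 ranges had medians of 0.00, -0.02 and -0.01. Across the 57 members the difference and the mean level had a Spearman rho of 0.43, a description across genes measured on the same 2 arrays. The part of dim signal in the smaller differences was not tested.

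Neighbours that start head to head were also compared. Overlapping start windows on opposite strands were found for 16 pairs that include a listed gene, and both genes of 7 pairs passed the filter. In these 7 pairs both genes were above 0, where 86% of the measured members and 79.7% of other chromosome 21 genes past the filter were. Each pair holds a member, and members were chosen as higher in this comparison, so the count was partly fixed in advance and carries no test. LINC01424 (6.89 and 6.36) and BRWD1-AS2 (6.67 and 6.36) passed the filter only through the overexpression array, so their sign was partly fixed by the filter. C21orf58, opposite PCNT, differed by 0.77 (8.09 and 7.32), URB1-AS1, opposite URB1, by 0.86 (8.79 and 7.92), TIAM1-AS1 by 0.53, LINC01424, opposite UBE2G2, by 0.53 and BRWD1-AS2 by 0.31. GABPA differed by 0.20, less than its neighbour ATP5PF. SON and GART, whose shared sequence is printed above, stood furthest apart on their brightest probe sets, at 0.03 and 0.73. Whether these probe sets keep the paired transcripts apart was not tested.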

How the data were processed

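RNA of 2 HEC1A lines was measured on 1 array each. Per the submitters' processing notes, Partek 6.6 was used. Background correction, normalization and summarization are not stated in the labels or headers. The deposited values are on a log2 scale, a base taken from their range of 2.01 to 14.72. Their medians over 54675 probe sets were 6.02 and 6.01, so the arrays had been brought to a common scale before deposit, which would remove a shift shared by most genes. No depth applies to arrays, and their number limits the precision.

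Of the probe sets, 41097 had 1 gene symbol in the platform annotation, 1801 had several and 11777 none. Only those with 1 were used. Chromosomes and gene order came from RefSeq (GRCh38.p14). Values were used as deposited, with no pseudocount, in Python 3.11.15 with pandas 2.3.3. The code was tested on simulated data. Groups of 1 array allow no test, so genes were counted by fold. All members could be named. Of other chromosome 21 genes, the receptor genes, those near the centromere and those with extreme values were named, and of partners those furthest from 0 in a list. MRPL39, SLC5A3, the cell type markers, head-to-head neighbours and some partners were named after their values were seen. Members, gene lists and thresholds were chosen with earlier results of these data known. Alternatives covered scaling, the choice of probe set and the filter.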

Additional observations from a re-analysis of the deposited data

How the results depend on the processing

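Median centring and quantile normalization moved the members' median difference only to 0.35 each, with 11 members at least 1.5-fold higher under both. The deposited arrays already had nearly the same distribution, with at most 0.048 between values of equal rank. Such rescaling could therefore change little and is no check of the result. The choice of probe set mattered more. With all probe sets of a gene averaged the members' median was 0.23 and 6 were at least 1.5-fold higher. With the second brightest probe set, dim ones included, the median was 0.052, 5 of 44 members were at least 1.5-fold higher and 23 were above 0. Without probe sets whose names mark a possible match to several transcripts the median was 0.21, with 5 of 45 members at least 1.5-fold higher and 32 above 0. With the probe sets past the filter averaged, a choice made after seeing the data, the median was 0.26 and 8 members were at least 1.5-fold higher. A stricter brightness filter, the 75th percentile, gave a members' median of 0.45 over 40 genes. The median of the other chromosome 21 genes was 0.049 with no brightness filter, over 185 genes, and between 0.22 and 0.46 under the other alternatives run. That of the complex partners lay between -0.02 and 0.00 throughout. No paired analysis was possible because each group has 1 array.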

Other observations

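Among the 74 chromosome 21 genes off the list that passed the filter, the largest positive differences were those of HSF2BP, a meiotic recombination factor, with 8.13 in overexpression and 6.47 in knockdown, and of 2 noncoding RNAs. ITGB2-AS1 read 6.78 and 5.53, with the knockdown value not above the bacterial controls, and LINC00319 differed by 1.04. SIK1, a salt-inducible kinase, read 10.17 and 9.22 and SH3BGR 8.28 and 7.35. The largest negative differences among these 74 were those of CXADR, given above, and of the noncoding RNA LINC01697 (5.95 and 6.99). CHODL differed by -0.38, ADAMTS1, a secreted metalloprotease, by -0.34, NRIP1 by -0.26 and ICOSLG by -0.19. CXADR, LINC01697, CHODL, ADAMTS1 and NRIP1 all lie in the stretch from the centromere to N6AMT1. LINC01697 and CHODL (6.28 and 6.67) passed the filter only through the knockdown array, so their negative sign was partly fixed by it.

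The 18 noncoding RNAs and pseudogenes of chromosome 21 past the filter had a median difference of 0.34, with 14 above 0. Among them, ITGB2-AS1, LINC01424 and BRWD1-AS2 passed the filter only through overexpression and LINC01697 only through knockdown. The signs of these genes were partly fixed by the filter. The 56 protein-coding genes off the list had a median of 0.30, with 45 above 0. The 111 chromosome 21 genes below the filter had a median of 0.00, with 48 above 0 and 43 below. Their differences ran from -1.87 to 1.22.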
